A study of Mus musculus with 6 samples.

Results

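The genes described here encode the proteins of the cytosolic ribosome. They were chosen by symbol alone: every symbol of the RNA matrix that starts with Rpl or Rps followed by a digit, plus Rpsa, without pseudogene symbols (9 symbols holding -ps) and without the Rps6k kinases (10 symbols). The rule gave 83 of the 31028 symbols. Of these, 74 are ordinary subunits, 31 of the small and 43 of the large ribosomal subunit. The other 9 are Rpl22l1, Rps27l, Rps27rt, Rpl10l, Rpl36al, Rpl39l, Rpl3l, Rpl7l1 and Rps19bp1, which are paralogs, a gene copy or, for Rps19bp1, a protein that binds Rps19. The open-chromatin tables listed 8269 symbols, among them 79 of the 83.

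Each ribosome holds a single copy of nearly every one of these proteins, so the subunit genes are transcribed together at high levels, and growing cells devote much of their messenger RNA to them. Their mRNAs carry a run of pyrimidines at the 5′ end, the terminal oligopyrimidine tract, through which their translation is tied to growth signalling. Progenitor cells that divide are known for a high ribosomal protein content, and the genes are a standard measure of the biosynthetic state of a cell.

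The tissue was dissected embryonic pancreas of C57BL/6 mice with the genotype Ptf1a+/+ (WT) or Ptf1aenh-delta/enh-delta (KO), a homozygous deletion of an enhancer of Ptf1a, a transcription factor gene of the early pancreas. At embryonic day 10.5, 5 to 9 embryos were pooled for each library of pancreatic multipotent progenitor cells, and at embryonic day 13.5, 6 embryos were pooled for each library of whole pancreas. Single-cell RNA was measured at E10.5 with a 3′ tag kit, and single-nucleus open chromatin (ATAC) at E10.5 and E13.5. Each group was 1 library, so no difference has a replicate check, no p-value is given, and every interval below is a 95% interval that covers counting error only. Genotype and library cannot be told apart, and at E13.5 the barcodes also name a different month for each genotype.

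The RNA matrix held 1104 WT and 815 KO barcodes, of which 451 and 369 had at least 1000 detected genes and were kept, with 4106604 and 4011819 unique molecular identifiers (UMIs, single counted transcripts). Kept cells had a median of 6700 UMIs in WT and 9856 in KO. Ptf1a had 142 UMIs in WT kept cells and 0 in KO, where a count of 0 allows up to 0.748 CPM (counts per 1000000 UMIs). Xist had 301 and 2358 UMIs, so the pools differed in a transcript of the inactive X chromosome. The RNA libraries shared 1 barcode, kept in both, and the ATAC libraries shared 0 barcodes at E10.5 and 2 at E13.5.

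All 74 ordinary subunits passed the minimum of 50 UMIs over both libraries, as did 6 of the other 9 symbols. Rpl10l and Rpl3l, copies of subunit genes known from testis and muscle, had 0 UMIs in both libraries, which allows up to 0.731 CPM in WT and 0.748 CPM in KO. Rpl39l, a testis-enriched paralog of Rpl39, had 1 UMI, in KO. The median subunit had a UMI in 98.9% of kept cells of either library. The lowest subunit in WT was Rpl13a, at 78.7% of cells, and the lowest in KO was Rpl27, at 84.8%.

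The 6 start-site windows shown here belong to the 3 subunit genes with the lowest and the 3 with the highest KO over WT ratio among those with a RefSeq promoter entry (GRCm38.p6, 55 of 74 subunits matched). They are shown because the start-site pyrimidine run is the sequence feature the family is known for. Each holds 20 bases before and 10 bases from the annotated start on the gene's strand, and capitals mark its longest run of C and T.
Rpl35, chr2:39005122-39005151, minus strand: gaagtcggccccgCCCTTTCCTCTTTCTCT
Rpl39, chrX:37085213-37085242, minus strand: CCCCCCCTaagctccgcctctagcgacttc
Rpl26, chr11:68901546-68901575, plus strand: gagaTCTCgcggcaacttacagaaccggaa
Rpl13a, chr7:45128736-45128765, minus strand: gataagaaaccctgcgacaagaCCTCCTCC
Rpl4, chr9:64173367-64173396, plus strand: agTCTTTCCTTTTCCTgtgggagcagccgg
Rps3, chr7:99483700-99483729, minus strand: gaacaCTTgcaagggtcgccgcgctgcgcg

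Over the whole windows, the longest runs were 17, 8 and 4 bases in the 3 lowest genes and 8, 14 and 3 bases in the 3 highest. Those of Rpl39, Rpl26, Rpl4 and Rps3 ended before the annotated start, so by the annotation they are not part of the mRNA. Within 10 bases of the start only Rpl35 and Rpl13a held a run of at least 8. Such a run thus stood at both ends of the order of these 6 genes. A run of at least 8 C or T on the gene's strand within 10 bases of either side of the start was present in 16 of 55 subunits (29.1%) and in 1987 of all 27025 promoter entries (7.35%). An annotated start can lie a few bases from the start used in the cell, and a missing run says only that these letters are not in this window. The KO over WT median was a log2 of -0.47 in the 16 subunits with the run and -0.54 in the 39 without it. Their median coding lengths also differed, at 470 and 438 nt, and the part of length in this gap was not tested.

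Ribosomal protein transcripts made up 21.2% of the UMIs of WT kept cells (95% exact binomial interval 21.16 to 21.24, 870690 UMIs) and 15.6% of those of KO kept cells (15.59 to 15.66, 626820 UMIs). KO minus WT was -5.58 percentage points by these sums (Newcombe interval -5.63 to -5.52). Symbols starting with mt-, those of genes encoded in the mitochondrion, held 0% of UMIs in both libraries. The shares are therefore of a total without such transcripts. Single cells spread widely: the share ran from 7.22% through a median of 20.6% to 35.8% in WT, and from 4.21% through 14.6% to 38.9% in KO. The ranges overlapped almost completely, while the KO median lay below the WT lower quartile of 16.0%.

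Both subunits were lower in KO to a like degree. The small subunit took 9.99% of WT and 7.30% of KO UMIs, and the large subunit 11.0% and 8.18%. The small subunit's part of both was 47.6% in WT and 47.2% in KO, so the balance between the subunits stayed within 1 percentage point. The paralogs and other symbols took 0.213% and 0.143%. Ribosomal proteins that the symbol rule does not reach, such as Rplp0, Rplp1, Rplp2, Fau and Rack1, took 1.42% and 1.06%. Mitochondrial ribosomal proteins, a separate family, took 0.887% and 0.842%, and ribosome biogenesis factors 0.448% and 0.373%.

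Among the 3 named clusters the share had the same order in both libraries. Cells were clustered without the ribosomal protein genes, so the share had no part in forming the clusters. It was highest in named clusters in the pancreatic progenitor-like cluster, with a median per cell of 23.6% in 123 WT cells and 17.5% in 72 KO cells. The mesenchyme-like cluster had 18.5% in 105 WT cells and 15.4% in 95 KO cells. The lowest medians were those of the endocrine-like cluster, 16.1% (72 cells, WT) and 12.99% (140 cells, KO). A further cluster without a cell type name, led by Gm42418, histone genes, Ube2c and Sox17, had 25.04% (151 cells, WT) and 16.8% (62 cells, KO), at a median of only 3205 and 2104 UMIs per cell. At a finer cluster setting its 151 WT cells were 74 cells of the larger mesenchyme-like cluster and 77 of another unnamed cluster. Its 62 KO cells were 43 and 19 of these. That finer unnamed cluster, led by Sox17 and Ube2c, had the highest median share of the 7 finer clusters, 29.8% in WT and 21.1% in KO. Its median depth was 4439 UMIs in WT and 2938 in KO.

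**Figure D1:**
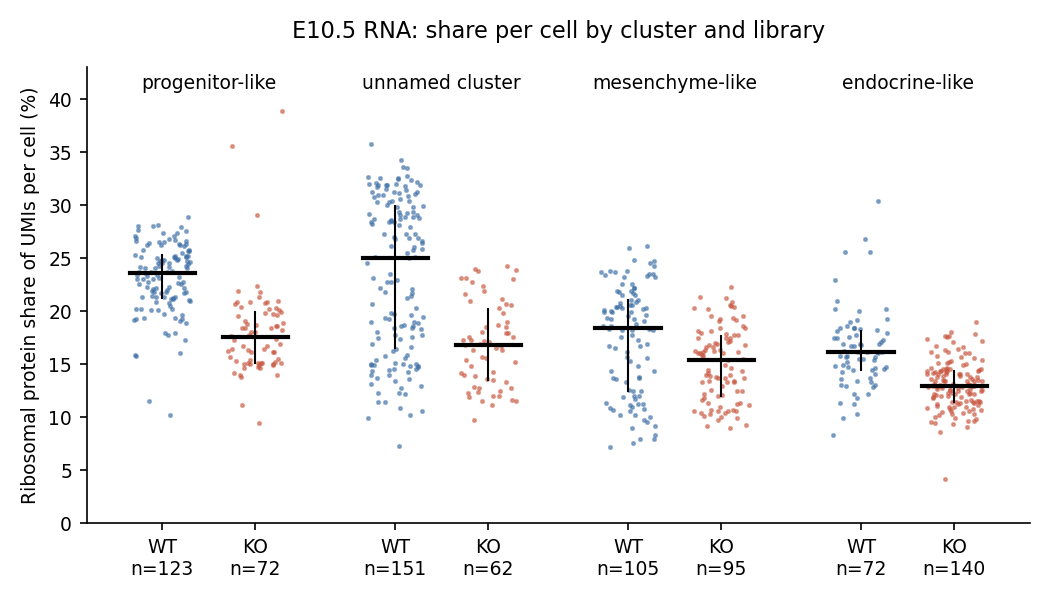
Share of UMIs from ribosomal protein genes in each kept E10.5 cell (points, in percent), by cluster and library, with a horizontal bar at the median and a vertical line between the quartiles. In each of the 4 clusters the KO median sits below the WT median, and the endocrine-like cells sit lowest of the named clusters in both libraries (16.1% WT, 12.99% KO).

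In each of the 4 clusters the KO share of summed UMIs was below the WT share by more than counting error. KO minus WT was -5.49 percentage points in the progenitor class (interval -5.59 to -5.39), -3.42 in the mesenchyme-like cluster, -2.53 in the endocrine-like cluster and -7.65 in the unnamed cluster. Gm42418, a transcript that overlaps a ribosomal RNA repeat, moved in the same direction: it took 0.608% of UMIs in WT and 0.377% in KO kept cells (log2 -0.69), and its KO over WT log2 was -0.46 in the progenitor class, -0.77 in the mesenchyme-like, -0.26 in the endocrine-like and -0.09 in the unnamed cluster. Its part in the difference was not tested. The clusters were not made of the same cells in both libraries. At a finer setting the 123 WT progenitor-class cells were 108 progenitor-like and 14 hepatoblast/biliary-like cells, with 1 in another cluster, and the 72 KO cells were 34 and 36, with 2 in others. Within the finer progenitor-like cells the share was 23.5% in WT and 15.9% in KO (KO minus WT -7.58), and within the hepatoblast/biliary-like cells 23.6% and 20.3% (-3.29). In WT these 2 kinds of cell had a like share, and in KO the hepatoblast/biliary-like cells lay above the progenitor-like cells. At this setting the order of the named clusters was not the same in both libraries: the larger mesenchyme-like cluster (19.5% in WT, 16.9% in KO) lay below the progenitor-like cells in WT and above them in KO. Within KO, all 74 subunits were higher in the hepatoblast/biliary-like than in the finer progenitor-like cells, against 41.6% of 4027 genes tested, from Rps19 (log2 0.06) to Rps21 (log2 0.80) with a median of 0.35 and all genes at -0.07. This difference, too, ran with length: its rank correlation with coding length was -0.58 over the subunits, and 89 other genes with an mRNA under 600 nt had a median of 0.33. In WT the subunit median was 0.02.

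Cell depth moved with the share in ways that differed by cluster and library. The KO median was below the WT median in each range of UMIs per barcode from 500 upward, including barcodes that failed the gene filter. With each range ending just under the start of the next, it was 15.2% against 15.7% from 500 UMIs, 14.9% against 16.4% from 1000, and 15.2% against 21.2% from 2000. It was 14.03% against 23.7% from 5000, 14.5% against 21.8% from 10000, and 16.2% against 20.5% from 20000 upward. Below 500 UMIs, with 22 barcodes in each library, it was 15.9% in KO and 15.004% in WT. The gap was widest in the middle of the range and narrow among shallow barcodes. Over all barcodes that failed the filter the share was 16.4% in WT and 15.1% in KO (KO minus WT -1.298, interval -1.45 to -1.14).

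**Figure D2:**
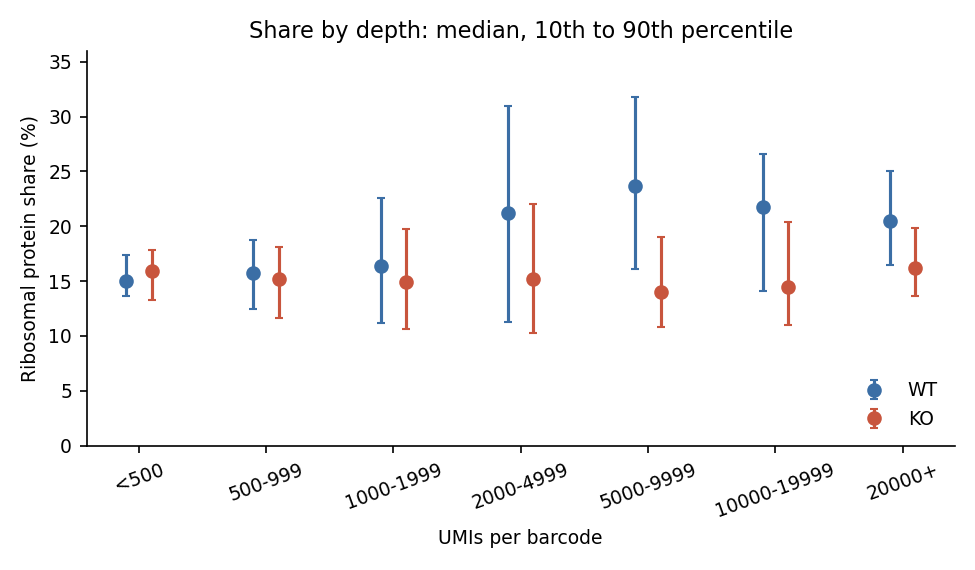
Median share of UMIs from ribosomal protein genes (percent) in ranges of UMIs per barcode, for all barcodes of the WT and KO E10.5 RNA libraries, with bars from the 10th to the 90th percentile. The medians lie close together below 2000 UMIs and apart above it, by the most from 5000 to 10000 UMIs (23.7% WT, 14.03% KO).

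With each cell thinned to 2000 UMIs, which left out 61 WT and 45 KO cells, the medians were 21.5% and 14.8%. Thinned medians were 23.7% and 17.6% in the progenitor class, 19.2% and 16.0% in the mesenchyme-like cluster and 15.9% and 13.2% in the endocrine-like cluster, close to the unthinned values. Within clusters, the rank correlation of share and UMIs per cell was 0.78 (WT) and 0.54 (KO) in the unnamed cluster and 0.58 and 0.55 in the mesenchyme-like cluster. In endocrine-like cells it was negative, at -0.43 and -0.16. The points of each correlation are cells of 1 library, and the share and the depth come from the same counts.

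Single genes were compared as log2(KO CPM + 10) minus log2(WT CPM + 10), with a change called past 1.5-fold. Of the 80 members tested in all kept cells, 34 were lower in KO and 0 higher, against 1.75% of all 10367 genes tested lower and 3.28% higher. The 34 were 13 small-subunit genes, 18 large-subunit genes and 3 of the other symbols. The median over ordinary subunits was -0.50, while the median over all genes was 0.13, and 74 of the 80 members lay below 0, against 27.7% of all genes. With scaling by the median of ratios, which puts the median gene at 0, 47 members were lower and the subunit median was -0.68. Counting intervals of the ratio lay below 1 for 71 members, above 1 for 3 and held 1 for 6.

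The lowest ratio belonged to Rpl35, a protein beside the nascent chain exit tunnel. Rpl35 was at 1537 CPM in WT (6313 UMIs) and 762 CPM in KO (3055 UMIs), a ratio of 0.50 (interval 0.47 to 0.52). Also among the lowest were Rpl36 (log2 -0.91), Rpl39, the short protein that lines the exit tunnel (-0.89), and Rpl26 (-0.85), known as a regulator of p53 translation. At the other end stood Rpl3, a protein that reaches the peptidyl transferase centre. Rpl3 was at 2163 CPM in WT (8881 UMIs) and 2416 CPM in KO (9693 UMIs), a ratio of 1.12 (1.09 to 1.15).

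Besides Rpl3, 5 members lay at least 0.5 above the subunit median: Rpl7l1, a large-subunit assembly factor (0.12), Rpl13a, a protein also known from an interferon-regulated translation inhibitor complex (0.08), Rpl4, which forms part of the exit tunnel wall (0.06), Rpl7 (0.06) and Rps3, at the mRNA entry of the small subunit (0.02). No member lay as far below the median. All 6 lay above 0 by total UMIs, and this sign depended on the scaling. With median-of-ratios scaling 0 members lay above 0, and the 6 ran from Rpl3 at -0.02 to Rps3 at -0.15. With the members left out of the total 2 did, Rpl3 at 0.06 and Rpl7l1 at 0.02, and the lowest of the 6 was Rps3 at -0.07.

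The members with most counts followed the common pattern. In the small subunit they included Rps29 (22207 WT and 14003 KO UMIs, log2 -0.63) and Rps27a, made as a fusion with ubiquitin (19101 and 14219, -0.39). In the large subunit they were Rpl13 (21878 and 19069, -0.16), Rpl41, the shortest of the family (19214 and 11098, -0.76), and Rpl23 (16782 and 11297, -0.54). The members with fewest counts included Rps25 (7093 and 4189, -0.72) and Rps28 (8419 and 5195, -0.66) in the small subunit and, in the large, Rpl13a (1457 and 1507), Rpl27 (2268 and 1364, -0.68) and Rpl31 (5239 and 2867, -0.83). Counts are 3′ tags and depend on how reads of each gene were assigned, so their order between genes is not an order of expression.

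Among the other symbols, Rpl22l1, the paralog of Rpl22, had 3561 WT and 2127 KO UMIs (log2 -0.70), Rpl36al -0.66 and Rps27l, a p53-responsive paralog of Rps27, -0.61. Rps27rt had 298 and 204 UMIs (-0.44), and Rps19bp1, known as a regulator of the deacetylase Sirt1, 378 and 342 (-0.10). The proteins outside the rule split in the same manner: the stalk proteins Rplp1 (-0.84) and Rplp2 (-0.80) and the ubiquitin-like fusion Fau (-0.53) were low, and the stalk base Rplp0 (-0.01) and the scaffold Rack1 (-0.02) were level.

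Other genes of protein synthesis had medians nearer to that of all genes. Of 17 translation genes with a pyrimidine tract of their own 0 passed 1.5-fold, with a median of 0.06, from Npm1, a nucleolar chaperone (-0.23), to Tpt1 (0.26). The shortest mRNA among these 17 was that of Eif3k, at 848 nt, while 27 members had an mRNA under 600 nt. The part of length in this contrast was not tested. Of 22 ribosome biogenesis genes 1 was lower (Nop10, a pseudouridylation complex protein, -0.63) and 0 higher, with a median of -0.21 and the transcription factor Mycn highest (0.21). Of 77 mitochondrial ribosomal proteins tested 2 were lower, with a median of 0.01, from Mrpl52 (-0.84) to Mrpl27 (0.37). The 12 proliferation genes had a median of -0.18. The 4 X-linked members stood at -0.89 (Rpl39), -0.84 (Rpl36a), -0.29 (Rpl10, the late-assembling P-site protein) and -0.09 (Rps4x). They did not move as one, and the part of the Xist difference in them was not tested.

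The genes that differed from the common value were ordered by length. This relation was noticed after the values were seen and is given as a description. Over the 74 subunits, the rank correlation of the KO over WT log2 with coding length was 0.87 (Pearson 0.75 on log10 length), and with mRNA length 0.63. The points share both libraries, and the genes are not independent. The 37 subunits below the median coding length of 465 nt had a median of -0.70, with 30 past 1.5-fold, and the other 37 had a median of -0.19, with 1 past it. In bins, the 24 shortest members (below 400 nt) had a median of -0.73 and all lay below 0, the 30 from 400 to under 600 nt had -0.42, and the 18 from 600 to under 900 nt had -0.09.

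**Figure D3:**
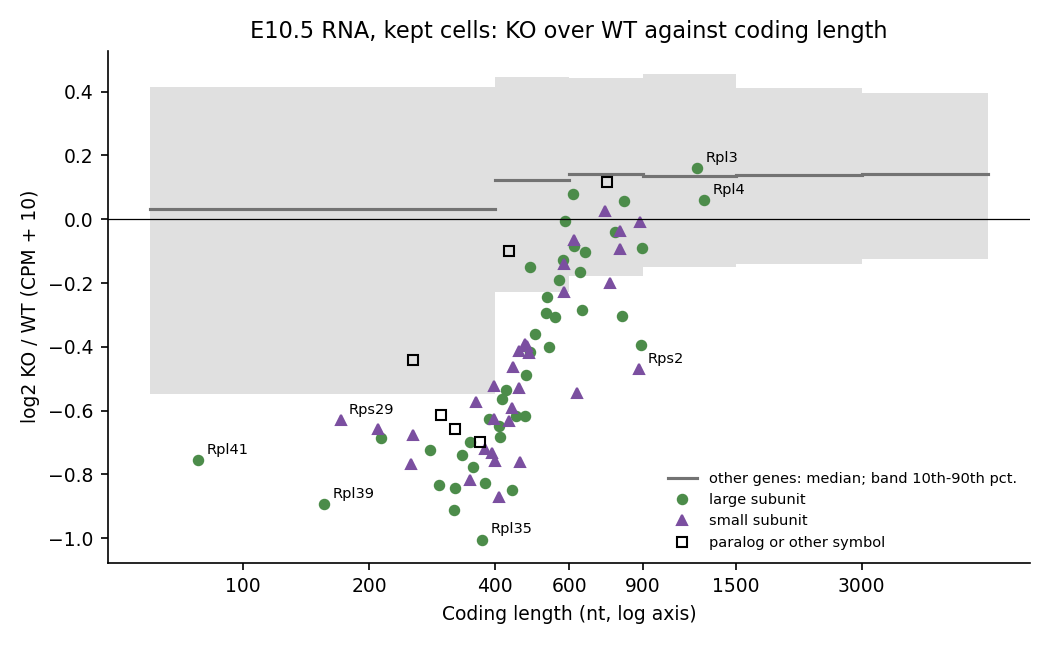
KO over WT of each member in kept E10.5 cells (log2 of CPM + 10) against its coding length (nt, log axis), with the median and the 10th to 90th percentile of all other genes in bins of coding length as line and band. Members below 400 nt sit near -0.73, and long members such as Rpl3 (0.16) and Rpl4 (0.06) sit near the other genes.

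Other genes did not follow coding length as the members did: below 400 nt their median was 0.03 over 562 genes, and from 400 to under 600 nt 0.12 over 832. Among genes with an mRNA under 600 nt, the median was -0.41 over 143 other genes and -0.72 over 27 members, and from 600 to under 900 nt it was 0.06 over 353 other genes. Short mRNAs outside the family were thus also lower in the KO library, by less over all kept cells. Within clusters this gap under 600 nt was narrower. The medians of other genes and members were -0.49 and -0.65 in the progenitor class and -0.44 and -0.58 in the endocrine-like cluster. They were -0.43 and -0.51 in the mesenchyme-like cluster and -0.69 and -0.83 in the unnamed cluster. In barcodes that failed the filter both medians were -0.28. By coding length, the 13 mitochondrial ribosomal proteins below 400 nt had a median of -0.05 over all kept cells, with 9 below 0. In the progenitor class their median was -0.18, with 11 below 0. Rps2 (882 nt, -0.47) and Rpl6 (891 nt, -0.39) were among the members of longer coding sequence that stood well below the trend, and were picked out after their values were seen.

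Split this way, the shorter subunits took 10.8% of WT and 6.76% of KO UMIs (KO minus WT -4.07, interval -4.10 to -4.03). The longer subunits took 10.2% and 8.72% (-1.44, interval -1.48 to -1.40). An order by length was present in each cluster, with rank correlations of 0.83 in the progenitor class, 0.91 in the endocrine-like cluster, 0.89 in the mesenchyme-like cluster, 0.86 in the unnamed cluster and 0.79 in barcodes that failed the filter. The shorter subunits were lower in KO in every cluster: KO minus WT was -4.12 points in the progenitor class, -2.56 in the endocrine-like, -2.99 in the mesenchyme-like and -5.47 in the unnamed cluster. The longer subunits were -1.31 in the progenitor class (interval -1.38 to -1.24), -2.10 in the unnamed cluster and -0.37 in the mesenchyme-like cluster, but 0.08 in the endocrine-like cluster (0.0076 to 0.145). That last sign depended on the scaling: as a log2 ratio of summed counts it was 0.02 by total UMIs, -0.08 by the median of ratios and -0.03 with the members left out of the total.

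Within the progenitor class, 28 of 80 members were lower in KO past 1.5-fold and 0 higher, against 2.94% of all 6848 genes tested lower and 7.49% higher. The subunit median was -0.42 and that of all genes 0.14. The lowest were Rpl35 (-0.97), Rpl36 (-0.89), Rps26 (-0.84), Rpl26 (-0.82) and Rps18 (-0.80). The highest were Rpl7l1 (0.49, 219 WT and 216 KO UMIs), Rpl3 (0.16), Rps3a1 (0.07), Rps4x (0.03) and Rps3 (0.01). Rpl35, Rpl3 and Rpl7l1 were the members at least 0.5 from the subunit median here. In the endocrine-like cluster 17 members were lower (subunit median -0.32), against 2.16% of 6672 genes, and in the mesenchyme-like cluster 17 (-0.37), against 2.32% of 6676.

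The endocrine-like cells had lower levels of nearly every subunit than the progenitor class, in both libraries separately. The endocrine-like over progenitor log2 had a subunit median of -0.61 in WT and -0.45 in KO, with all genes at 0.03 and 0.02. Below 0 in both libraries were 73 of 74 subunits, against 38.2% of all genes tested, the exception being Rpl13a at 0.03 in KO. Past 1.5-fold lower in both were 21 of 80 members (8 small-subunit and 12 large-subunit genes and Rpl7l1) and 0 were higher, against 10.7% and 12.6% of 6347 genes tested. The excess of members over the background was lost with finer clusters: 5 of 80 members were lower at the finer setting, against 10.6% of 5386 genes, and 6 at the finest, against 13.6% of 3852.

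In WT the lowest were Rps2, at the mRNA entry channel (3260 CPM in the progenitor class, 1520 in the endocrine-like cluster, log2 -1.10), Rpl12, at the base of the stalk (2873 and 1343 CPM, -1.09), Rpl36a, next to the exit site for tRNA (1859 and 932 CPM, -0.99), Rpl32 (-0.94) and Rpl35 (-0.89). In KO the lowest were Rpl39 (1979 and 985 CPM, -0.999), Rpl36a (1181 and 633 CPM, -0.89), Rpl7l1 (-0.89), Rpl12 (2319 and 1339 CPM, -0.79) and Rps4x (-0.74). Rpl12 and Rpl36a thus stood among the 5 lowest in both libraries.

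Rps2 was the lowest gene in WT but not in KO. It was at 3260 CPM in WT and 2148 CPM in KO progenitor-class cells, at 2497 and 2360 CPM in mesenchyme-like cells and at 1520 and 1510 CPM in endocrine-like cells. Its values in the endocrine-like cells of the libraries overlapped within counting error (1438 to 1606 CPM in WT, 1449 to 1573 CPM in KO).

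The genes nearest to level between the cell types were, in WT, Rps19bp1 (0.26), Rps27rt (-0.07), Rps21 (3074 and 2839 CPM, -0.11), Rpl36al (-0.14) and Rpl19, a bridge between the subunits (3469 and 3074 CPM, -0.17). In KO they were Rps19bp1 (0.05), Rpl13a (0.03), Rpl4 (-0.02), Rpl36al (-0.05) and Rps14 (-0.07). Rps19bp1 and Rpl36al were in both sets. Of the X-linked members, Rps4x, Rpl36a and Rpl39 were lower past 1.5-fold in both libraries and Rpl10 was not. The endocrine over progenitor difference had little relation to coding length, with rank correlations of -0.27 in WT and 0.06 in KO over 74 subunits.

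**Figure D4:**
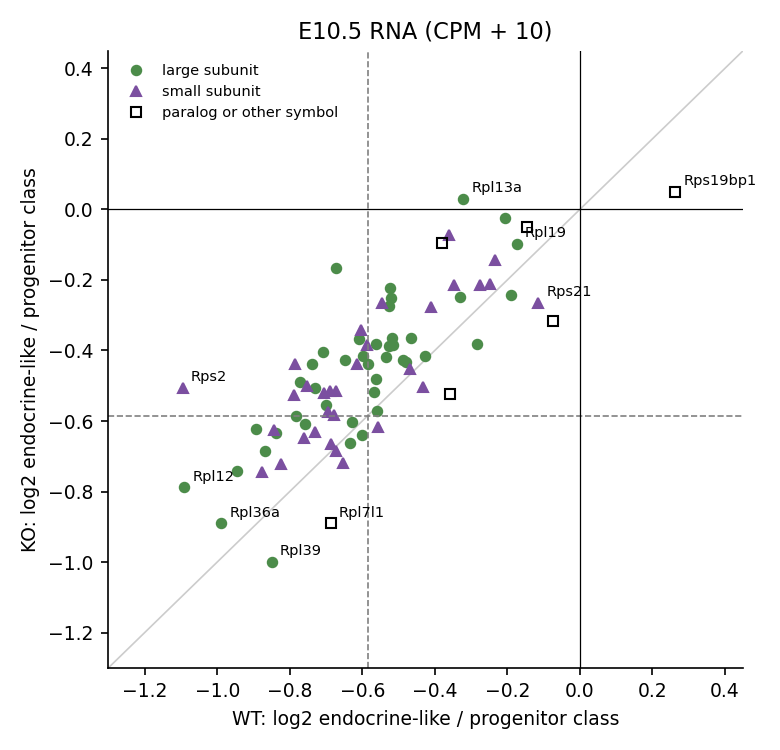
Endocrine-like over progenitor class (log2 of CPM + 10) for each member in the WT library (x axis) and the KO library (y axis), with dashed lines at 1.5-fold lower. The points sit below 0 on both axes except for Rps19bp1 and Rpl13a, and 21 lie past both dashed lines.

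Other genes of growth moved in the same direction between these cells. Lower in both libraries past 1.5-fold were 8 of 19 biogenesis genes and 11 of 12 proliferation genes, against 10.7% of all 6347 genes tested. So were 2 of 17 translation genes with a tract (among them Npm1, -1.01 in WT and -0.79 in KO), a count near that share. Of 6 ribosomal proteins outside the rule 1 was lower, Rack1 (-0.90 and -0.66). Of 77 mitochondrial ribosomal proteins 3 were lower and 4 higher. Summed proliferation genes were 2312 CPM in the WT and 2642 CPM in the KO progenitor class and 940 and 696 CPM in the endocrine-like cluster, and their part in the difference in ribosomal proteins was not tested.

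Mesenchyme-like cells differed less from the progenitor class. This cluster also held endocrine markers, at a summed 4014 CPM in WT and 6040 CPM in KO, against 94 and 107 CPM in the progenitor class. Its summed mesenchyme markers were 1565 and 1389 CPM, against 434 and 427 CPM. The part of such a mixture in the values below was not tested. Of the 80 members 0 were lower past 1.5-fold in both libraries, against 2.25% of 6402 genes. The subunit median was -0.27 in WT and -0.15 in KO, and 68 of 74 subunits lay below 0 in both, against 25.7% of genes. In WT the lowest were Rps18 (-0.49), Rpl17 (-0.46), Rpl5, a protein of the 5S particle (-0.44), Rps15 (-0.42) and Rpl10 (-0.42), and the highest Rpl7l1 (0.08), Rps21 (0.00), Rpl22l1 (-0.06), Rps16 (-0.08) and Rpl4 (-0.08). In KO the lowest were Rpl7l1 (-0.44), Rps12 (-0.41), Rpl36a (-0.36), Rpl39 (-0.33) and Rpl10a (-0.30), and the highest Rpl13a (0.26), Rps2 (0.14), Rps19bp1 (0.08), Rps27l (0.07) and Rpl7 (0.06). Rpl7l1 was thus at opposite ends of the order in the libraries.

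Ribosomal protein genes have many processed copies, and reads that match several genes can be assigned to any or none of them. Of the 83 members, 51 had at least 1 other annotated gene matching the last 300 bases of their transcript (at least 95% identity over at least 150 bases), with a median of 6 such genes and the most, 46, for Rpl7a. For 14 members such a copy had a row in the RNA matrix. Subunits with a copy had a KO over WT median of -0.54 (48 genes) and those without one -0.41 (26 genes). Their median coding lengths also differed, at 457.5 and 490.5 nt, and the part of length in this gap was not tested. Rpl13a and Rpl31, among the members with fewest counts, had no such copy, and Rpl27 had 9.

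Rps18, whose protein sits at the head of the small subunit, was the member where a copy moved most. Rps18 had 12270 WT and 7051 KO UMIs (-0.76). Gm10260, a copy matching it at 98.7% over 299 bases, had 15 and 584 UMIs, and Gm11361 (99.7% over 296 bases) had 2 and 212. Summed with both copies Rps18 had 12287 and 7847 UMIs, a log2 of -0.61, a smaller difference than that of Rps18 alone. Gm10260 had the highest KO over WT of all 10367 genes tested (log2 3.51). Reads of Rps18 and of its copies cannot be told apart from these counts. For Rpl41, the copy Gm10076 had 5082 and 2677 UMIs, lower in KO like Rpl41 itself.

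The ATAC tables give an accessibility signal per gene, with each cell summing to 10000 over the listed symbols and an unknown number of fragments per cell. Of the 79 listed members 78 were above 0 in at least 10% of cells of a library and were compared. Rps25 was not, and Rpl10l, Rpl39l, Rpl3l and Rps27rt were not listed. At E10.5 the members' share of the signal had a median per cell of 1.39% in 838 WT nuclei and 1.39% in 700 KO nuclei. Of the 78 members 0 differed past 1.5-fold, against 0.256% of 8219 genes, and the subunit median log2 KO over WT was 0.02. The lower share of ribosomal protein transcripts in the KO RNA library had no counterpart in this signal.

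The lowest members at E10.5 were Rps24 (mean signal 2.26 in WT and 1.70 in KO, log2 -0.41), Rps19, the gene most often mutated in Diamond-Blackfan anaemia (-0.36), Rpl7a (-0.32), Rps20 (-0.31) and Rpl37a (-0.30). The highest were Rpl8 (1.83 and 2.42, 0.40), Rps6, the substrate of the S6 kinases (0.23), Rpl7 (0.21), Rps4x (0.21) and Rpl31 (0.19). Over the 74 listed subunits the WT signal had a rank correlation of 0.08 with WT RNA CPM, and over 78 members the KO over WT values of ATAC and RNA had one of 0.13. The WT signal itself was alike at the 2 stages (0.95 over 74 subunits). These are descriptions over genes that share their libraries.

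The endocrine-like nuclei at E10.5 (63 WT, 68 KO) had a median share of 1.36% in both libraries, against 1.40% in 574 WT and 1.39% in 502 KO nuclei of the largest cluster, which stayed unnamed. The gap between cell types seen in RNA was small here.

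At E13.5 the share was 1.504% in 2314 WT and 1.61% in 602 KO nuclei. Past 1.5-fold were 5 of 78 members, against 18.7% of 8208 genes, so the members' count was no excess over the background. Rpl13a (mean signal 1.92 in WT and 3.34 in KO, log2 0.80), Rps15a (1.45 and 2.52, 0.80), Rps28 (0.72) and Rpl36a (0.66) were higher, followed by Rps18 (0.56), and Rps4x was lower (-0.59), followed by Rps19bp1 (-0.55), Rpl11 (-0.40), Rpl32 (-0.35) and Rps13 (-0.32). The sign of KO over WT was the same at both stages for 34 of 78 members.

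A red cell-like cluster, named from 8 of 8 raised erythroid markers, held 140 of 2314 WT but 272 of 602 KO nuclei. Its members' share was 1.87% in WT and 1.84% in KO, against 1.54% and 1.48% in the largest cluster and 1.39% and 1.32% in the endocrine-like cluster, so red cell-like nuclei were alike in both genotypes and above the other clusters. Over the other nuclei, 18 of 78 members were higher past 1.5-fold in both libraries, against 18.8% of 8195 genes, and 4 lower, against 34.0%. The members' median was 0.35 in WT and 0.31 in KO, with all genes at -0.08 and -0.12. The highest were Rps15a (4.13 against 1.28 in WT, 4.004 against 1.29 in KO), Rpl13a (5.19 against 1.71, 5.24 against 1.77) and Rps28 (2.90 against 0.95, 2.65 against 1.02). The lowest were Rps19bp1 (0.36 against 0.99, 0.31 against 0.93), Rpl30, Rpl11 and Rpl3.

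Without the red cell-like cluster 0 members were higher in KO past 1.5-fold, against 1.19% of 8208 genes, and 1 lower, Rps4x (-0.60), against 0.816%. Over all nuclei Rps4x had the lowest mean signal of the members compared (0.60 in WT, 0.40 in KO). It was above 0 in 19.2% of WT and 23.6% of KO nuclei. Detection was higher in KO in general, with a median over all genes tested of 43.2% in WT and 54.2% in KO, so this rise was not particular to Rps4x. The members' median moved from 0.10 with all nuclei to -0.02. Rpl13a then stood at 0.06, Rps15a at 0.02, Rps28 at 0.11 and Rpl36a at 0.46. Within the red cell-like cluster Rpl13a stood at 0.01 and Rps15a at -0.04, and past 1.5-fold 0 members were higher, against 10.1% of 8195 genes, and 1 lower, Rps27 (-0.65), against 2.60%. The higher E13.5 values of Rpl13a, Rps15a and Rps28 in KO thus came with the larger part of red cell-like nuclei in that library and were near 0 on either side of that split.

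**Figure D5:**
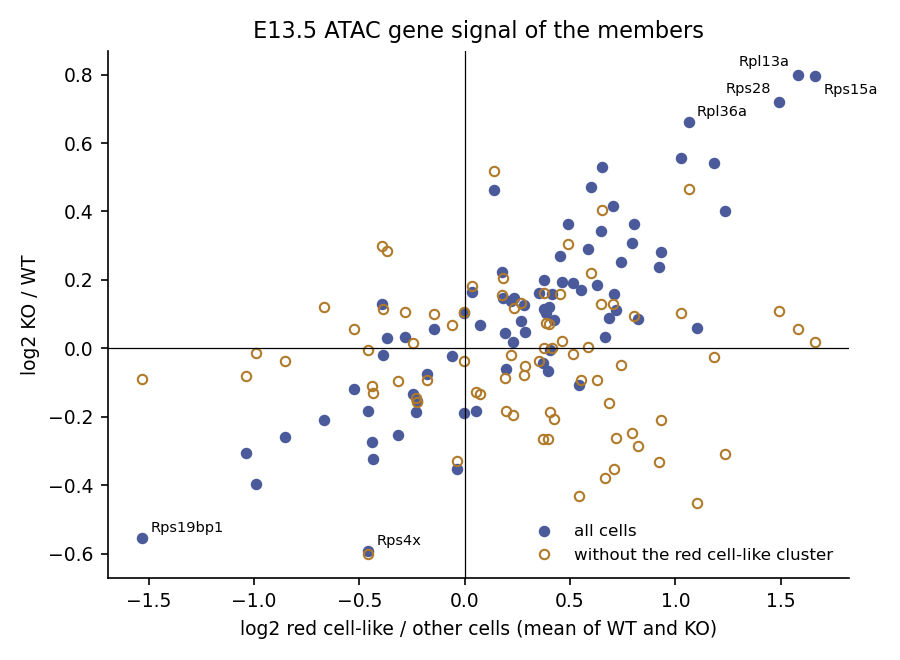
KO over WT of the E13.5 ATAC signal (log2) of each listed member against its signal in red cell-like over other nuclei (log2, mean of WT and KO), with all nuclei (filled) and without the red cell-like cluster (open). Rpl13a and Rps15a sit at 0.80 with all nuclei and at 0.06 and 0.02 without that cluster, while Rps4x sits near -0.6 in both.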

How the data were processed

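Members and gene lists were chosen with earlier results of these data known. The authors deposited UMI counts per gene and barcode for RNA, and for ATAC a gene signal scaled to 10000 per cell. Per the submitters' processing notes the build was mm10. For the aligner, annotation, filters on cells and the tool behind the ATAC signal, the sources used here give nothing. 0 barcode columns belonged to other samples. RNA barcodes with at least 1000 detected genes were kept, counts were summed per library and cluster, and genes with at least 50 UMIs in a comparison were compared as log2(CPM + 10). Clusters came from Leiden clustering (scanpy 1.11.5, leidenalg 0.10.2; 2000 variable genes, 30 components, 15 neighbours, resolution 0.3, and 0.5 and 0.8 as finer settings) without ribosomal protein genes, and were named from marker lists. Scrublet marked 2 WT (0.443%) and 8 KO (2.17%) kept cells as doublets, which stayed in. Shares have exact binomial, their differences Newcombe, and CPM and ratios exact Poisson or conditional intervals (scipy 1.17.1, numpy 2.4.6, pandas 2.3.3, python 3.11.15). Figures used matplotlib 3.10.9. Scripts were checked on simulated data. Named genes were the up to 5 highest and 5 lowest members of each comparison, the 3 with most and fewest UMIs per subunit, the paralogs, the ribosomal proteins outside the rule, and the ends of each other list. Genes at least 0.5 from the subunit median were named too. Lengths come from RefSeq GRCm38.p6 and copies from GENCODE M21. Some genes that this rule names are not reported here.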

Additional observations from a re-analysis of the deposited data

Results flagged for a closer look

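The longer subunits, at or above the median coding length, took a lower share in KO in the progenitor class (-1.31 percentage points) and a slightly higher one in the endocrine-like cluster (0.0764 points), which are opposite signs by total UMIs. With the median of ratios the log2 of the summed longer subunits was -0.35 in the progenitor class and -0.08 in the endocrine-like cluster, so both were then lower in KO. The difference between the clusters was not tested, since each group was 1 library. Of single genes, 3 members had a ratio interval below 1 in the progenitor class and above 1 in the endocrine-like cluster: Rps6 (0.858, 0.812 to 0.906, and 1.09, 1.01 to 1.18), Rpl5 (0.875, 0.829 to 0.923, and 1.25, 1.16 to 1.34) and Rpl13 (0.924, 0.895 to 0.953, and 1.06, 1.01 to 1.11). With median-of-ratios scaling Rpl13 in the endocrine-like cluster was at a log2 of -0.01, Rps6 at 0.03 and Rpl5 at 0.22. Outside the members, Gm10260 (584 UMIs in KO kept cells, 15 in WT) and Gm11361 (212 and 2), both matching the end of Rps18, were above their level in the WT library.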

How the results depend on the processing

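No paired analysis was possible because each group was 1 library, and no replicate could be left out. No share difference changed sign. The median KO over WT of the ATAC members did: at E13.5 from 0.10 to -0.02 without the red cell-like cluster, and at E10.5 from 0.02 to -0.01 when cells in the lowest and highest 10% by genes above 0 were dropped. The share in KO minus WT (-5.58 points) was -5.05 with no cell filter, -5.69 with at least 2000 UMIs, -6.14 thinned to 2000 UMIs, -5.95 with the other ribosomal proteins and pseudogene symbols added, and -5.96 as a difference of medians per cell. In settings chosen after seeing the data it was -1.44 with longer and -4.07 with shorter subunits only, -6.22 in cells of 5000 to 20000 UMIs and -4.98 without the unnamed cluster. The endocrine-like minus progenitor share was -7.91 in WT and -4.95 in KO. It was -7.09 and -5.24 thinned, -8.05 and -2.91 at resolution 0.5, -6.01 and -2.81 at 0.8, -7.16 and -4.62 with members among the variable genes, -4.21 and -2.83 with longer subunits, and -3.65 and -2.09 with shorter ones. The count of members lower in endocrine-like cells in both libraries (21) was 33 with members left out of the total, 5 at resolution 0.5 and 6 at 0.8. Of members lower in mesenchyme-like cells (0), 1 appeared after thinning. At E13.5 the count past 1.5-fold (5) was 1 without the red cell-like cluster. The other 40 alternative values were within 1.5 times the reported count or within counting error. Members lower in KO ranged from 28 to 47 in all kept cells and from 23 to 42 in the progenitor class. Thinning to 2000 UMIs gave 12 of the 21 members of the endocrine-like comparison and 22 of the 28 of the progenitor class, so calls of ordinary subunits moved too. This setting also left out 61 WT and 45 KO kept cells and tested 77 members instead of 80 in these comparisons. The part of depth alone was not tested.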
